A study of Homo sapiens with 16 samples.

Results

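The response of FOXM1-deficient acute myeloid leukemia (AML) cells to cytarabine (AraC) was measured by RNA-seq in KG-1-FOXM1-KD cells, with 2 libraries after 48 h in 0.75 µM AraC and 2 after 48 h in the solvent DMSO. KG-1 is an established human AML line. Both groups carried the same lentiviral pLKO.1 vector with an shRNA against FOXM1 and came from one stable, puromycin-selected population. The shRNA was thus shared, and the drug was the difference between them. Genes with a mean of at least 10 counts over these 4 libraries were described, which left 14202 of the 43836 genes listed, 12038 of them protein-coding. Just below this minimum, 201 genes had a mean from 9 to under 10 counts, and just above it 179 had a mean from 10 to under 11. The whole series held 16 libraries in 8 groups of 2. Those used for comparison were KG-1-control cells, which carried a non-target shRNA, after the same AraC or DMSO treatment, and KG-1-FOXM1-KD cells after 48 h in 100 nM venetoclax, an inhibitor of BCL2.

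AraC is a nucleoside analogue that is phosphorylated by the cell and built into replicating DNA, where it slows chain extension and stalls the replication fork. Stalled forks call up the S-phase checkpoint, and the damage that follows is read by p53 and by inflammatory and stress kinase signaling. FOXM1 is a transcription factor that drives genes of the G2 and M phases and is often abundant in AML blasts.

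FOXM1 itself, the gene targeted by the shRNA, had 2057 and 2161 counts after AraC and 923 and 1551 after DMSO. All 4 values lay below the 2515 to 3497 counts of the 4 KG-1-control libraries given AraC or DMSO. As CPM, the count of a gene scaled to the size of its library, FOXM1 was 117 ± 4.18 after AraC and 68.9 ± 25.3 after DMSO (SD, n = 2 each). The AraC libraries lay above both DMSO libraries, with a log2 fold change of 0.77 (SE 0.27, adjusted p = 0.0374), short of the 2-fold minimum set here for a call. With CPM scaled over all 16 libraries, FOXM1 was at 121 and 114 after AraC and 48.8 and 81.8 after DMSO. On the same scale KG-1-control cells stood at 181 and 156 after AraC and 140 and 138 after DMSO. After AraC the KG-1-FOXM1-KD cells thus lay only a little below KG-1-control cells in DMSO.

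The label of the cells was checked against surface and granule markers. PTPRC, CD33 and SPN, carried by myeloid blasts, were read in all 4 libraries. CD34, the antigen that marks KG-1 blasts, had 4 and 0 counts after AraC and 0 and 2 after DMSO, against 13875 to 26713 in the KG-1-control libraries. CD38, of the same marker list, had 24 to 111 counts here and 3467 to 4485 in the KG-1-control libraries. MPO, the peroxidase of the primary granules, had 28881 to 94451 counts here and 35 to 242 in the KG-1-control libraries. In all, 150 genes had at least 100 counts in each of the 4 KG-1-FOXM1-KD libraries and at most 3 in each KG-1-control library, and 249 genes had the reverse. The KG-1-FOXM1-KD cells went against the CD34-positive KG-1 label, and any other difference between the 2 populations cannot be told apart from that of FOXM1 in a comparison between them. Hemoglobin and glycophorin genes had at most 9 counts in each library, and CD3D, CD3E and PF4 had no count in the KG-1-FOXM1-KD libraries. Other lineage markers were read there. The B cell gene PAX5 had 131 and 139 counts after AraC and 34 and 12 after DMSO. The platelet gene ITGA2B had 105 and 115 counts after AraC and 8 and 4 after DMSO.

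Across the genes described, AraC raised many more genes than it lowered. At a 2-fold change and an adjusted p under 0.1 (edgeR's quasi-likelihood test with Benjamini-Hochberg adjustment), 2274 of 14202 genes were called, 1749 higher and 525 lower, whereas 11.6% of all 23381 genes with a count were called, 9.03% higher and 2.57% lower. Of the genes described, 12.3% were called higher and 3.70% lower, the base for each list count below. With genes near 0 after DMSO set at their lower bound, 772 genes rose at least 4-fold and 75 at least 16-fold, while 51 fell at least 4-fold. Both AraC libraries lay outside the DMSO range for 1746 of the 1749 higher and 512 of the 525 lower genes. As these genes were called on the same libraries, their separation follows largely from the choice. The share over all genes described was not counted. Of the higher genes, 1560 were protein-coding and 105 were long non-coding RNAs, and of the lower genes 347 and 106 were. Protein-coding genes with the shortest exonic length were called most often in both directions. Among the fifth of genes with the shortest length 14.8% rose and 5.10% fell, against 12.2% and 2.12% among the fifth with the longest. Among the higher genes, 110 had at most 3 counts in both DMSO libraries and entered only through the AraC libraries. Their fitted fold changes depend on the prior count, and where such a gene is named its lower bound against a floor of 3 counts in each DMSO library is given.

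**Figure D1:**
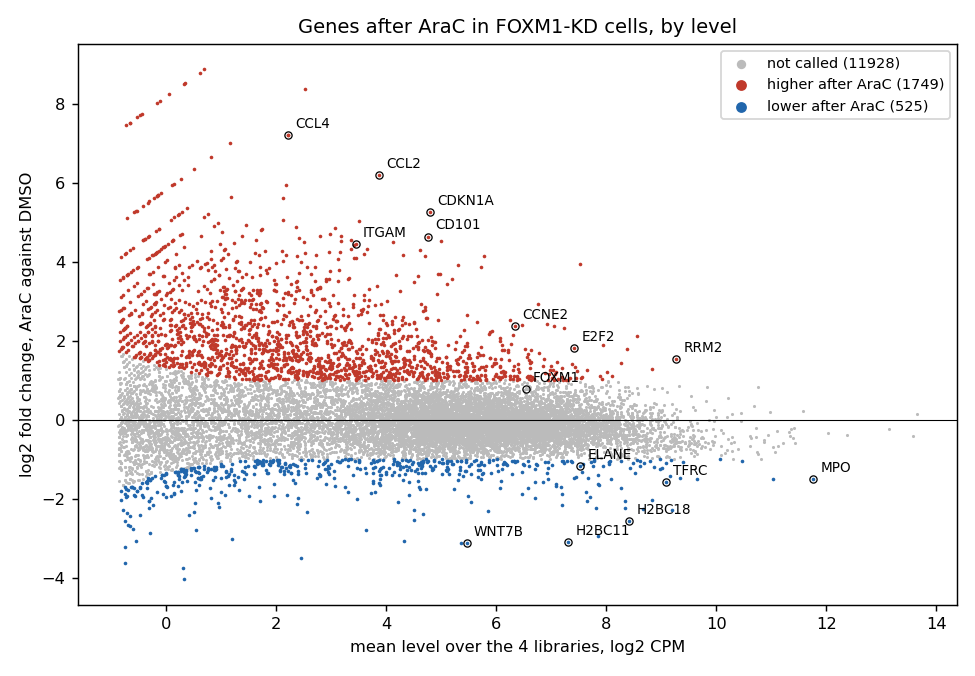
Log2 fold change of AraC over DMSO (vertical axis) against mean log2 CPM over the 4 KG-1-FOXM1-KD libraries (horizontal axis), with each point 1 of the 14202 genes described and called genes in color. The 1749 higher genes spread further from 0 than the 525 lower genes, and the strongest rises lie among genes of low mean level.

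The balance of rises and falls depended on the scaling between libraries. Scaling by total counts alone moved the median log2 fold change of these genes from -0.04 to 0.13, and the calls to 2032 higher and 279 lower, so that 87.9% of calls were rises instead of 76.9%. Leaving out either AraC library from the 4-library test gave 0 calls, with 1782 genes past 2-fold at an unadjusted p under 0.05 without the first and 2234 without the second. Leaving out DMSO library 1 or 2 from it gave 2514 and 2240 calls. In a fit that pooled the spread over all 16 libraries, 1232 genes were called without AraC library 1, 1574 without AraC library 2, 1645 without DMSO library 1 and 1183 without DMSO library 2. The counts at an unadjusted p covered all genes tested, 22308 and 22255, while the calls covered the genes described. DMSO library 1 read above DMSO library 2 in 62.0% of the genes that rose, against 48.7% of all genes described. Fewer cells that express a gene and less of its RNA in each cell cannot be told apart in these bulk libraries.

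The p53 target list was led by CDKN1A, which encodes the cyclin-dependent kinase inhibitor p21 (ENSG00000124762, chr6:36676460-36687337 in hg38, plus strand). CDKN1A had 1115 and 828 counts after AraC and 39 and 12 after DMSO. Both AraC libraries stood far above both DMSO libraries, at 54.5 ± 15.1 against 1.41 ± 1.05 CPM (SD, n = 2 each), a log2 fold change of 5.26 (SE 0.38, adjusted p = 1.3e-39). BTG2, an antiproliferative cofactor, had 1927 and 1784 counts after AraC and 150 and 61 after DMSO, a log2 fold change of 4.14 (SE 0.32, adjusted p = 5.58e-34). GDF15, a stress-secreted cytokine, had 32 and 20 counts against 1 and 0, at least 8.79-fold higher. In all, 11 of the 28 measured p53 targets rose, TP53INP1, FAS and PMAIP1 among them, and the list had a median log2 fold change of 0.52 beside -0.04 for all genes described. The other members did not pass the test.

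**Figure D2:**
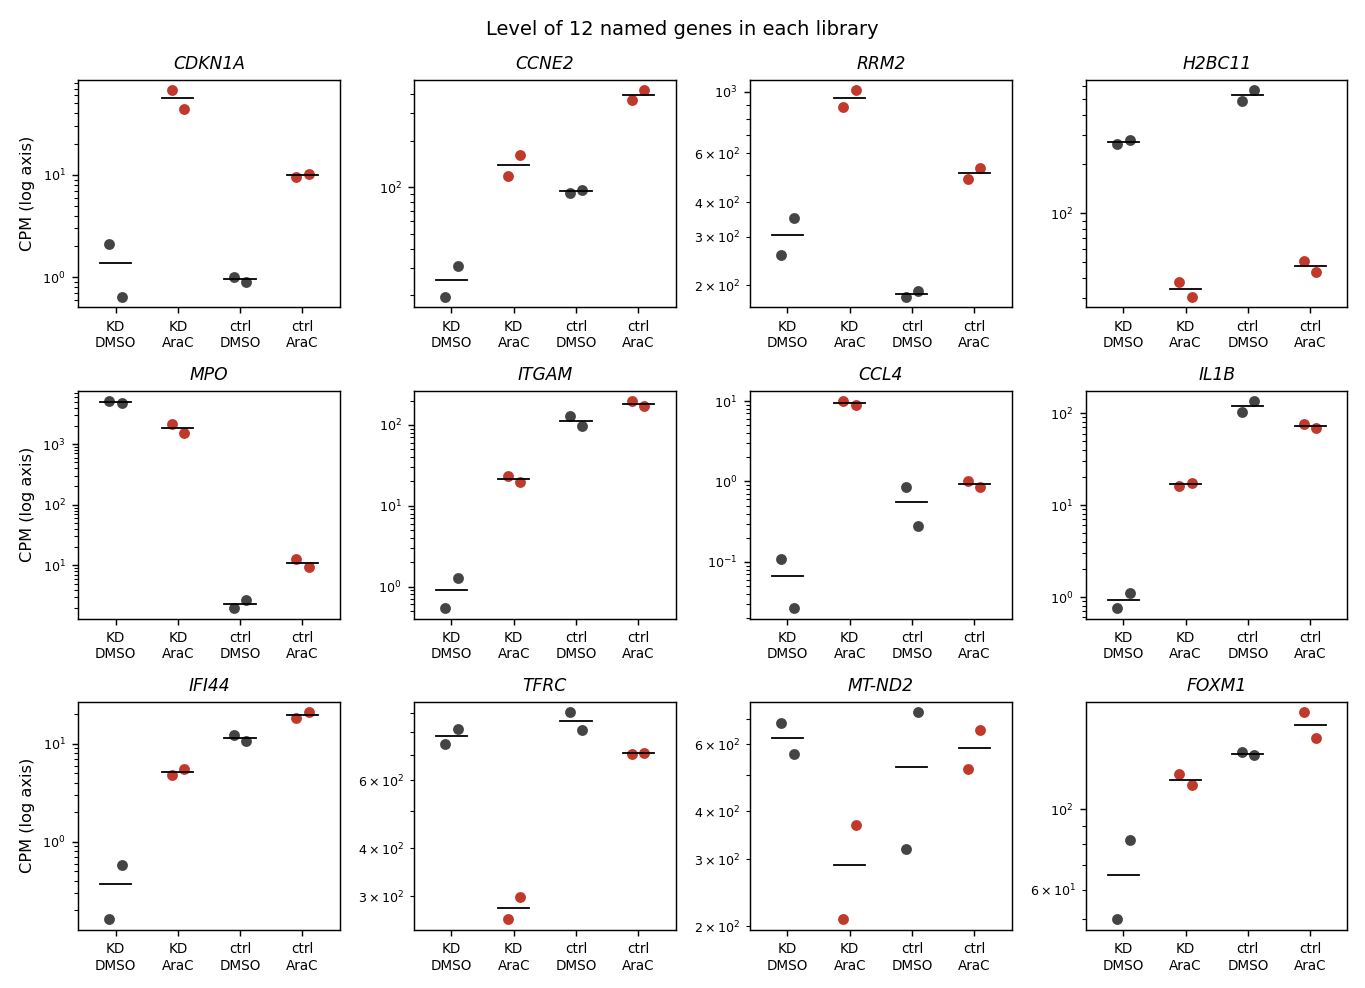
Level in CPM (vertical axis, log scale) of 12 genes in the KG-1-FOXM1-KD and KG-1-control libraries after AraC or DMSO, where each dot is 1 library, each line is the mean of 2, and a count of 0 is drawn at 0.5 counts. CDKN1A rose from 39 and 12 to 1115 and 828 counts in KG-1-FOXM1-KD cells, while MPO fell there from 94451 and 90669 to 35648 and 28881 counts.

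Of 45 measured replication-dependent histone genes, 33 fell. These genes lack a poly(A) tail on their usual transcripts and are made in S phase to package new DNA, and their RNA is broken down when DNA synthesis stops. The median log2 fold change of the list was -1.71 (-1.54 with scaling by total counts). H2BC11, a histone H2B gene (ENSG00000124635, chr6:27125897-27132795 in hg38, minus strand), had 621 and 568 counts after AraC and 4931 and 5314 after DMSO. The groups did not overlap, and the log2 fold change was -3.10 (SE 0.28, adjusted p = 1.02e-24). H1-3, a linker histone, fell from 6469 and 8260 counts to 911 and 995 (log2 fold change -2.95). H2BC8 fell from 202 and 163 counts to 16 and 16 (log2 fold change -3.50). H2BC26, H2BC18, H2BC3 and H2AC8 were also among the 10 protein-coding genes that fell most, out of those with at least 10 counts in each of the 4 libraries, beside H2BC8, H2BC11 and H1-3. The remaining 3 of those 10 were WNT7B, a secreted Wnt ligand with 182 and 142 counts against 1408 and 1445, the neurofilament gene NEFH with 46 and 67 against 320 and 462, and RSAD1 with 156 and 137 against 757 and 784. Histone genes are near-identical within each class, so reads may be split between copies and the value of a single copy is uncertain.

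Some genes of the G1 to S transition rose. CCNE2, the cyclin E2 that opens S phase, had 1956 and 3000 counts after AraC and 361 and 585 after DMSO. The AraC libraries lay above both DMSO libraries, with a log2 fold change of 2.38 (SE 0.29, adjusted p = 2.19e-14). Of 17 measured G1 cyclins, CDKs and CDK inhibitors, 6 rose (CDKN1A, CCNE2, CDKN2B, CCND1, CCND3 and CCNE1), with a list median of 0.83. E2F2, an activating E2F factor, rose from 1146 and 1585 to 5218 and 4292 counts (log2 fold change 1.81, SE 0.27). E2F7 and E2F8, the repressing members of the family, rose by 1.78 and 1.69 on the log2 scale. E2F5, a partner of the pocket proteins in resting cells, fell from 191 and 112 to 32 and 88 counts (log2 fold change -1.36, adjusted p = 0.00445), a call lost without DMSO library 1 (-0.94). MYBL2, the B-MYB partner of the MuvB complex, rose as well. Of 19 genes of the FOXM1, MuvB and E2F list, 4 rose and 1 fell (26.3%, beside 16.0% of all genes described).

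Among 48 measured DNA replication genes only the origin-licensing factor CDC6 was called, with 3131 and 4068 counts after AraC and 1525 and 2046 after DMSO (log2 fold change 1.00, SE 0.26), and the list median was 0.30. Without DMSO library 1 CDC6 was at 0.79 and was not called. TOP2A, the topoisomerase that untangles replicated DNA, had a log2 fold change of -0.27 (SE 0.24, adjusted p = 0.603). Among 43 checkpoint and DNA repair genes, FANCG, EXO1 and BRIP1 rose, each close to 2-fold (log2 fold changes of 1.12, 1.08 and 1.01), and the list median was 0.31. FANCG (0.93) and EXO1 (0.90) lost the call without DMSO library 1, and BRIP1 (0.99) without DMSO library 2. BRIP1 and FANCG belong to the Fanconi pathway of crosslink repair, and EXO1 is an exonuclease that resects DNA ends.

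Genes that make and use deoxynucleotides, the pool with which AraC competes, did not move as a group. RRM2, the small subunit of ribonucleotide reductase, had 14484 and 18885 counts after AraC and 4786 and 6601 after DMSO. Its AraC libraries exceeded both DMSO libraries, with a log2 fold change of 1.54 (SE 0.25, adjusted p = 3.15e-08). TK1, the thymidine salvage kinase, rose from 1364 and 2169 to 4971 and 3883 counts (log2 fold change 1.34). DHODH, an enzyme of pyrimidine synthesis, fell by 1.03 on the log2 scale, and NME2, a nucleoside diphosphate kinase, by 1.29. The call of DHODH was lost with scaling by total counts (-0.86), in the fit of all 16 libraries (-0.95) and without DMSO library 2 (-0.72). NME2 shares its exons with a readthrough transcript, so its count is uncertain. The list had no common direction, with 2 of 28 genes higher and 2 lower (14.3% called, beside 16.0% of all genes described). Its median of -0.11 turned to 0.06 when libraries were scaled by total counts.

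Genes of G2 and mitosis, among which lie the best known FOXM1 targets, had 0 of 47 members called by edgeR's quasi-likelihood test, by the exact test or by DESeq2. An unadjusted p under 0.05 was reached by 11 of them, and the list median was 0.05. PLK1, a mitotic kinase, had 2035 and 1837 counts after AraC and 1787 and 3090 after DMSO, so that the groups overlapped (log2 fold change -0.33, SE 0.26, adjusted p = 0.522). CDK1 had 2280 and 4041 counts against 2093 and 2969, again with overlap (log2 fold change 0.30, SE 0.26). AURKB, the kinase of the chromosomal passenger complex, had a log2 fold change of 0.56 (SE 0.28, adjusted p = 0.221), and UBE2C, an enzyme of mitotic exit, one of 0.17 (SE 0.28). The centromere protein gene CENPF was at -0.02 (SE 0.25), TACC3 at -0.08 and BUB3 at -0.13, and the sign of these 3 turned positive when libraries were scaled by total counts.

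On the primary granule list 6 of 15 genes fell and 1 rose. Of 34 genes of monocyte and neutrophil differentiation 19 rose. MPO (ENSG00000005381, chr17:58269855-58280935 in hg38, minus strand) had 35648 and 28881 counts after AraC and 94451 and 90669 after DMSO. The 2 groups were well separated, and the log2 fold change was -1.51 (SE 0.22, adjusted p = 1.58e-09). ELANE, the neutrophil elastase, fell from 5571 and 3688 to 2272 and 1782 counts (log2 fold change -1.18, SE 0.26, adjusted p = 0.000162). The others on the granule list that fell were PRTN3, CTSG, MS4A3 and IGLL1, the last of which does not encode a granule protein. With scaling by total counts 3 of that list were called lower. The call was lost without DMSO library 1 for ELANE (-0.87) and without DMSO library 2 for IGLL1 (-1.96). CST7, an inhibitor of cysteine proteases, rose from 178 and 49 to 443 and 438 counts (log2 fold change 1.96, not called by DESeq2, adjusted p = 0.102), and the list median was 0.01.

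ITGAM, the integrin subunit CD11b of monocytes and neutrophils (ENSG00000169896, chr16:31259967-31332892 in hg38, plus strand), had 386 and 361 counts after AraC and 10 and 24 after DMSO. No AraC library came near a DMSO library, and the log2 fold change was 4.45 (SE 0.41, adjusted p = 4.13e-24). ITGAX, the related subunit CD11c, rose from 71 and 29 to 943 and 817 counts (log2 fold change 4.15, SE 0.35). NCF1, a subunit of the phagocyte oxidase, rose from 21 and 13 to 350 and 386 counts (log2 fold change 4.43), although it has near-identical pseudogenes that may share its reads. LGALS3, a galectin of macrophages, rose from 7 and 1 to 58 and 82 counts (log2 fold change 4.08). One gene of the differentiation list, the transcription factor gene IRF8, fell, and the list median was 1.31. The 10 protein-coding genes that rose most, among those with at least 10 counts in each of the 4 libraries, included, beside CDKN1A, ITGAM, NCF1 and ADM, the immune receptors CD101 (898 and 970 counts against 35 and 40) and TREML2 (367 and 337 against 16 and 14), the integrin subunit ITGB7, the matrix protein FN1, the nuclear envelope protein SYNE2 and EMP1, a membrane protein with 1067 and 1123 counts against 68 and 28.

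NF-kB targets and inflammatory cytokines had, among the lists of at least 10 members, the largest share called, 24 of 29 higher, and the highest median, 2.40. NF-kB is a family of dimeric transcription factors that wait in the cytoplasm until an inhibitor is degraded and then bind the kappaB element of their targets. The 250 bases before the start of the 6 genes of this list with the largest rise and a RefSeq entry (assembly GRCh38.p14) are shown because the list stood apart most clearly. The sequences run 5′ to 3′ on the gene's own strand, and capitals mark matches to the relaxed kappaB consensus, in which the first base of the 10-base consensus is left free.

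CCL3 (chr17:36090144-36090393, minus strand): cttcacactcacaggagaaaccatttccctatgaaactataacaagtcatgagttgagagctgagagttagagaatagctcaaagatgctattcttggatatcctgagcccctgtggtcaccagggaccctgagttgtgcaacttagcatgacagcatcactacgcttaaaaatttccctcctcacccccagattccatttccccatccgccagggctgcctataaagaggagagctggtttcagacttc
IL1B (chr2:112836780-112837029, minus strand): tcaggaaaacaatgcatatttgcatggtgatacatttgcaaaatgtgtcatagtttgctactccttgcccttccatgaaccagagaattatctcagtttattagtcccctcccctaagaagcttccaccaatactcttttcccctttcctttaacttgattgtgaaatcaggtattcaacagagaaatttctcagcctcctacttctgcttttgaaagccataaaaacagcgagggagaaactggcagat
CXCL8 (chr4:73740319-73740568, plus strand): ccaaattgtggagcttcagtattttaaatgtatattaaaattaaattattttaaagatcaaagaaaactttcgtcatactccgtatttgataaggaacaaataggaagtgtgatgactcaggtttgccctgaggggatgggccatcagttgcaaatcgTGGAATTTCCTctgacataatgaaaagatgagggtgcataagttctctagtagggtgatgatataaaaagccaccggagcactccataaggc
ICAM1 (chr19:10270870-10271119, plus strand): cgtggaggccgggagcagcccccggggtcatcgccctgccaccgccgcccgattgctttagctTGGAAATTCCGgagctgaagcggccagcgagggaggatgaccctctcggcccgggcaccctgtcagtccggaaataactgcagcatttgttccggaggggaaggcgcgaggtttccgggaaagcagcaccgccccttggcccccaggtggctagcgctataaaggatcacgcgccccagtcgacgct
CCL20 (chr2:227813592-227813841, plus strand): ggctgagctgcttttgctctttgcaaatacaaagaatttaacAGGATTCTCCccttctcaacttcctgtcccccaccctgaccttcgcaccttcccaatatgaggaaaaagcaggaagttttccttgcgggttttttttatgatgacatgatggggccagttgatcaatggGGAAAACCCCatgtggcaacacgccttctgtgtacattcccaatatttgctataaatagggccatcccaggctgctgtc
TRAF1 (chr9:120929172-120929421, minus strand): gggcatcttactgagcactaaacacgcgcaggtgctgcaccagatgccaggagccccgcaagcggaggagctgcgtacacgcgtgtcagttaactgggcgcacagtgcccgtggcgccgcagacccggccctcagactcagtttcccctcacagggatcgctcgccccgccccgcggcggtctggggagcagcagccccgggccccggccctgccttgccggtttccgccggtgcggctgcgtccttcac

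The consensus was searched on both strands. CXCL8 matched 92 bases before the start, ICAM1 187 bases before it and CCL20 at 208 and 79 bases before it, with overlapping matches counted as 1 place here, while the windows of CCL3, IL1B and TRAF1 held no match. An entry was found for 18 of the 24 genes that rose. The relaxed consensus occurred in 11 of these 18 (61.1%) and in 27.7% of the 27305 promoters listed, and the full consensus in 6 of 18 (33.3%) and in 9.57% of all. The letters TATAAA, read on both strands, occurred in 9 of 18 (50.0%) and in 11.1% of all. The list was drawn up as NF-kB targets and inflammatory cytokines, so a kappaB share above that of all promoters can follow from that choice alone. These matches describe the sequence only. CCL4, CCL2 and IER3 are given without a promoter.

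CCL4, a chemokine gene, had 164 and 168 counts after AraC and 2 and 0 after DMSO, at least 55.5-fold higher. CCL2, which draws monocytes, had 536 and 505 counts against 8 and 6, a log2 fold change of 6.20 (SE 0.45, adjusted p = 3.82e-38). CCL3 rose from 47 and 6 to 622 and 570 counts (log2 fold change 4.50, SE 0.38). For these 3 genes the AraC libraries were alike and lay above both DMSO libraries, which for CCL3 were far apart. CCL3 and CCL4 have near-identical copies on the same chromosome arm that may share reads. IL1B, the precursor of the cytokine interleukin-1 beta, had 269 and 327 counts after AraC and 14 and 21 after DMSO (log2 fold change 4.08, SE 0.41, adjusted p = 4.55e-20). IER3, an early survival gene, had 49 and 33 counts against 2 and 1, at least 13.8-fold higher. The genes of the pathway itself were among those that rose: NFKB2, RELB and BCL3 are members or cofactors of the family, and TNFAIP3 is one of its feedback inhibitors. On this list, 4 genes had at most 3 counts in both DMSO libraries and entered only through the AraC libraries. With these 4 genes at their lower bound, the median stayed at 2.40.

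**Figure D3:**
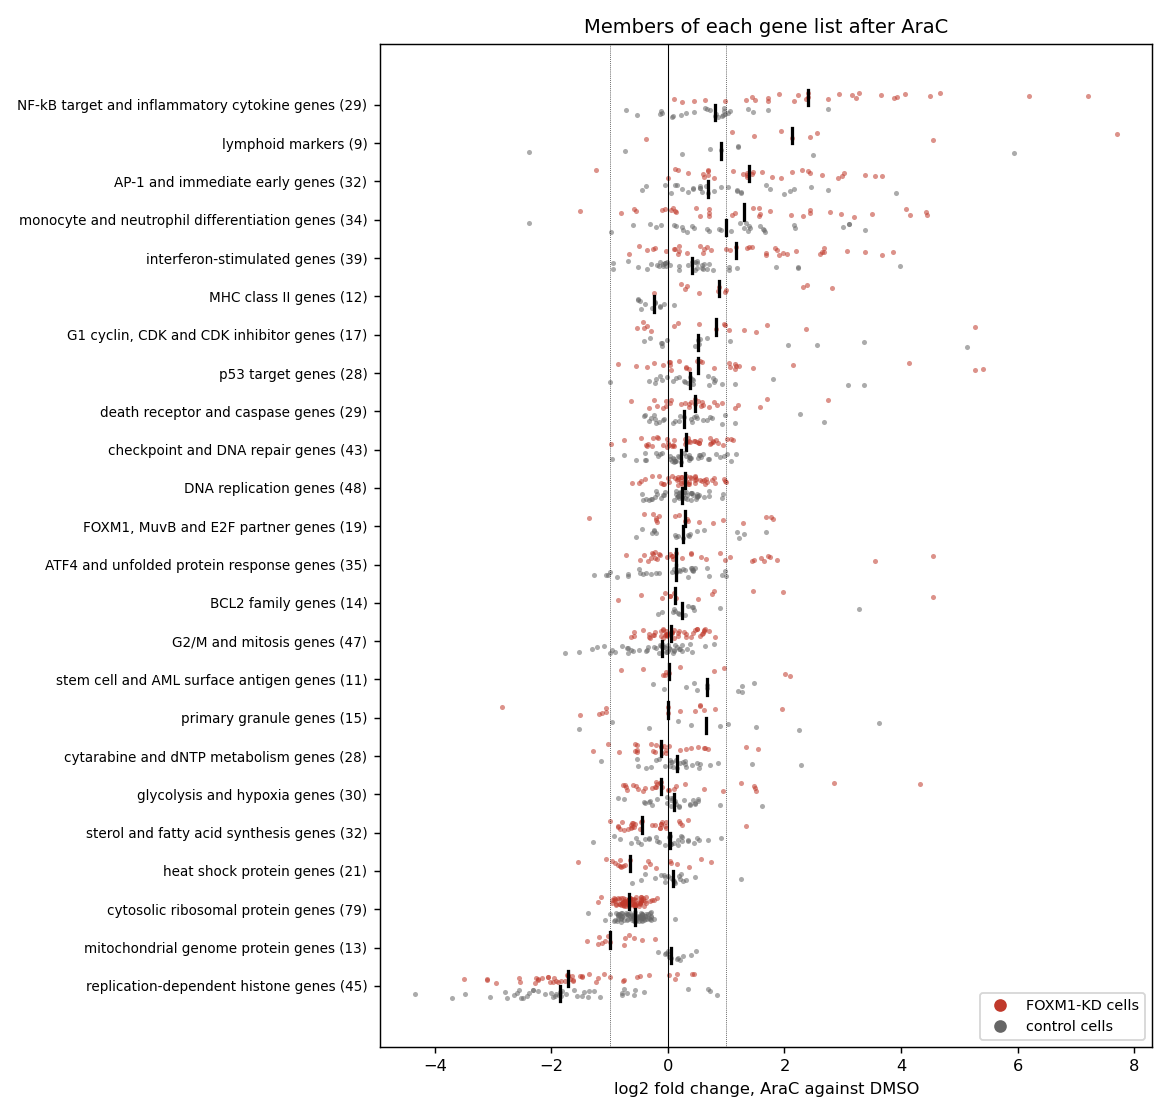
Log2 fold change of AraC over DMSO (horizontal axis) for each measured member of the gene lists with at least 9 members, in KG-1-FOXM1-KD cells (red) and KG-1-control cells (grey), with a black bar at each median. NF-kB targets lie furthest to the right in KG-1-FOXM1-KD cells (median 2.40, against 0.80 in KG-1-control cells), and the histone list lies furthest to the left in both (-1.71 and -1.85).

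Interferon-stimulated genes, which encode antiviral sensors and effectors, rose in 21 of 39 cases with a list median of 1.18. IFI44 had 79 and 104 counts after AraC and 3 and 11 after DMSO, without overlap (log2 fold change 3.68, SE 0.50, adjusted p = 2.63e-11). OAS3, an oligoadenylate synthetase that activates RNase L, rose from 60 and 30 to 525 and 408 counts (log2 fold change 3.38). CMPK2, a nucleotide kinase of mitochondria, rose from 14 and 19 to 151 and 128 counts (log2 fold change 3.08). OAS2 had 49 and 41 counts against 0 and 6 (log2 fold change 3.86). These are low counts, and the DMSO libraries held few reads for each of them.

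Immediate early genes, the first transcripts made after growth or stress signals, rose in 21 of 32 cases with a list median of 1.40. EGR1, a zinc finger factor, had 609 and 596 counts after AraC and 72 and 23 after DMSO (log2 fold change 3.67, SE 0.36, adjusted p = 1.35e-21). ATF3, a stress factor that dimerizes with AP-1 proteins, rose from 147 and 60 to 1248 and 1168 counts (log2 fold change 3.55, SE 0.33). DUSP1, a phosphatase that shuts off MAP kinases, rose from 46 and 49 to 398 and 372 counts (log2 fold change 3.02). All AraC libraries lay above all DMSO libraries for these 3 genes. EGR3 was read at 22 and 22 counts against 4 and 0 (log2 fold change 3.38). SPRY1, a feedback inhibitor of growth factor signaling, fell.

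Among genes that set the threshold for apoptosis, 3 of 14 measured BCL2 family genes and 5 of 29 death receptor and caspase genes were called, beside 16.0% of all genes described. BCL2A1, a prosurvival BCL2 relative, had 89 and 128 counts after AraC and 9 and 0 after DMSO (log2 fold change 4.55, SE 0.53, adjusted p = 1.9e-15). DESeq2 did not call it (adjusted p = 0.101). BMF, a BH3-only protein that promotes death, rose from 296 and 132 to 873 and 799 counts (log2 fold change 1.98, SE 0.31). PMAIP1, which encodes the BH3-only protein NOXA, rose from 1136 and 778 to 2229 and 3030 counts (log2 fold change 1.45, SE 0.27). BCL2 had 3426 and 4442 counts against 7664 and 6582, which did not overlap, but its log2 fold change of -0.86 (SE 0.25, adjusted p = 0.0085) was under 2-fold. BCL2L1 was at 0.52 (SE 0.30, adjusted p = 0.325) and MCL1 at 0.14 (SE 0.26, adjusted p = 0.758). BIRC3, GSDME, TNFSF10, RIPK3 and FAS rose. With p adjusted across all 8 groups RIPK3 was not called (adjusted p = 0.148 by edgeR's quasi-likelihood test). TNFSF10, the death ligand TRAIL, had 127 and 210 counts against 65 and 46 (log2 fold change 1.59). BIRC3, an inhibitor of apoptosis, had 258 and 496 counts against 94 and 17 (log2 fold change 2.75), a wide spread in both groups.

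Stress pathways gave a mixed picture. Of 35 ATF4 and unfolded protein response genes 10 rose (28.6%, beside 12.3% of all genes described), with a list median of 0.13. CEBPB, a factor of both stress and myeloid maturation, rose from 868 and 353 to 2161 and 1938 counts (log2 fold change 1.76, SE 0.28). CHAC1, which degrades glutathione, rose from 144 and 39 to 364 and 299 counts (log2 fold change 1.87). NUPR1 had 42 and 33 counts against 3 and 0, at least 12.6-fold higher. Among 21 heat shock genes, the mitochondrial cochaperonin HSPE1 (439 and 823 counts against 1217 and 2407) and the HSP90 cochaperone FKBP4 (2505 and 2375 against 3935 and 6308) fell, with log2 fold changes of -1.54 and -1.07 and a list median of -0.66. FKBP4 lost its call with scaling by total counts (-0.89), in the fit of all 16 libraries (-0.99) and without DMSO library 2 (-0.68), and HSPE1 lost it without the latter (-0.96). Of 30 glycolysis and hypoxia genes 6 rose, led by the vasodilator peptide gene ADM, with 368 and 336 counts against 24 and 11 (log2 fold change 4.33). EGLN3, an oxygen sensor, rose from 15 and 10 to 92 and 90 counts (log2 fold change 2.86), and the glucose transporter gene SLC2A3 from 527 and 199 to 990 and 1064 (log2 fold change 1.51, and 0.97 and not called without DMSO library 2). The median of that list was -0.12. Of 32 sterol and fatty acid synthesis genes only TM7SF2, a sterol reductase, was called (log2 fold change 1.34), and FASN, the fatty acid synthase, was at -0.79 (SE 0.24, adjusted p = 0.0117), under 2-fold.

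Transcripts of the translation and respiration machinery were lower as groups by small steps. All 79 cytosolic ribosomal protein genes had a negative log2 fold change, with a median of -0.66 (-0.50 with scaling by total counts), but only RPS29 (1530 and 1356 counts against 3297 and 3155) and RPL36A (188 and 248 against 442 and 553) passed the 2-fold minimum, RPS29 not with scaling by total counts (-0.99). RPL36A overlaps a readthrough transcript, and its count is uncertain. All 13 protein genes of the mitochondrial genome also had a negative value, with a median of -0.997 (-0.83 with scaling by total counts), and 6 fell (3 with scaling by total counts). MT-ND2, a subunit of respiratory complex I, had 3433 and 6875 counts after AraC and 12669 and 10672 after DMSO (log2 fold change -1.20, SE 0.25, adjusted p = 4.56e-05). The 2 AraC libraries differed from each other by about as much as AraC library 2 differed from DMSO. Reads of the mitochondrial genome took 1.32% and 1.91% of all counts after AraC and 2.13% and 2.04% after DMSO, and their part in the other results was not tested.

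Markers of other blood lineages moved with AraC from low levels. TFRC, the transferrin receptor of proliferating and erythroid cells, was the exception in level, with 4315 and 5563 counts after AraC and 13847 and 15314 after DMSO. It fell by 1.57 on the log2 scale (SE 0.25, adjusted p = 2.37e-08) with no overlap. ITGA2B, the platelet integrin subunit, rose from 8 and 4 to 105 and 115 counts (log2 fold change 4.17), while the platelet gene PF4 stood at 0 in all 4 libraries. Of 9 measured lymphoid markers 7 rose, with a list median of 2.14. CD79B, a chain of the B cell receptor complex, had 27 and 25 counts against 0 and 0, at least 8.71-fold higher, and CD8A had 42 and 33 against 3 and 0, at least 12.6-fold higher. PAX5, the B cell factor, rose from 34 and 12 to 131 and 139 counts (log2 fold change 2.55), and TRAC, the T cell receptor alpha constant gene, from 53 and 14 to 190 and 171 (log2 fold change 2.44). The summed level of the lymphoid list was 253 to 316 CPM after AraC and 285 to 294 CPM after DMSO, so it did not separate the groups, and CD3D and CD3E stood at 0 in all 4 libraries. The part of other cell types in these results was not tested. Among MHC class II genes, which present antigen to T cells, HLA-DQA1, HLA-DOA and HLA-DQB1 rose, 3 of 12 measured (7 with scaling by total counts), with a list median of 0.87. HLA-DQA1 had 32 and 33 counts against 4 and 5 (log2 fold change 2.82). The adhesion molecule gene PECAM1 rose from 165 and 109 to 816 and 819 counts (log2 fold change 2.58). Among 11 stem cell and AML surface antigens KIT (19 and 20 counts against 7 and 2) and CD38 (95 and 111 against 27 and 24) rose. That was 18.2% of the antigen list called, beside 16.0% of all genes described. HLA-DQB1 (1.48) and KIT (1.47) lost the call without DMSO library 2, and DESeq2 did not call either.

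To ask how the response depended on the population, the same drug effect was taken in KG-1-control cells and the difference was tested with an interaction term over 8 libraries. In KG-1-control cells 724 of the 13871 genes that could be tested rose and 351 fell, while 6.69% of all genes tested there were called, 4.52% higher and 2.17% lower. Leaving out either KG-1-control AraC library gave 0 calls in that 4-library test, with 1527 and 1430 genes past 2-fold at an unadjusted p under 0.05. Those counts at an unadjusted p again covered all genes tested, 22128 and 22043. The interaction called 1198 of the 14202 genes, beside 5.13% of all genes tested (3.94% higher and 1.19% lower). The effect of AraC in KG-1-FOXM1-KD cells was higher for 912 of them and lower for 286. Without a single library the count of called interactions ranged from 262, without KG-1-control AraC library 2, to 1616, without KG-1-FOXM1-KD DMSO library 1. The other omissions that moved it by over 1.5 times were these: 372 genes were called without KG-1-control AraC library 1, 474 without KG-1-FOXM1-KD AraC library 1, 752 without KG-1-control DMSO library 1 and 789 without KG-1-control DMSO library 2.

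Of the 1749 genes that rose in KG-1-FOXM1-KD cells, 1642 could be tested in KG-1-control cells, where 446 also rose and 14 fell. Their median log2 fold change was 1.88 in KG-1-FOXM1-KD cells and 0.75 in KG-1-control cells, and the interaction was called for 678 of the 1749. Since the genes were chosen by their rise in KG-1-FOXM1-KD cells, the smaller median in KG-1-control cells is a description. Of the 525 genes that fell, 102 of 502 tested also fell in KG-1-control cells and 7 rose, with medians of -1.30 and -0.46, and the interaction was called for 87.

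The lists differed in how they split between the populations. Of the histone list, 34 members fell in KG-1-control cells, with a median of -1.85, close to the -1.71 of KG-1-FOXM1-KD cells, and the interaction was called for 3 in one direction and 1 in the other. H2BC11 fell by 3.49 on the log2 scale in KG-1-control cells, and its interaction of 0.47 was not called. CCNE2 (2.07 in KG-1-control cells), RRM2 (1.44) and E2F7 (1.68) likewise had no called interaction. For NF-kB targets the interaction was called in 17 of 29 genes, all with a higher effect in KG-1-FOXM1-KD cells, and 4 rose in KG-1-control cells. IL1B had the largest positive interaction by the rule for named genes, 4.88 (SE 0.36, adjusted p = 3.42e-37), with 1461 and 1438 counts after AraC and 1838 and 2412 after DMSO in KG-1-control cells. ANXA1, an anti-inflammatory phospholipid binder, followed with 4.29 (SE 0.29), and CD101 and ADM had 3.85 and 3.90. MST1, a hepatocyte growth factor relative with a near-identical copy, had an interaction of 3.94, with log2 fold changes of 1.93 and -1.93. Among interferon-stimulated genes 11 had a higher effect in KG-1-FOXM1-KD cells, CMPK2 (interaction 3.67) and IFI44 (2.99) among them. The rise began from a lower level there. The summed level of that list was 1026 and 881 CPM after DMSO and 1645 and 1653 after AraC in KG-1-FOXM1-KD cells. In KG-1-control cells it was 2810 and 2480 CPM after DMSO and 2905 and 2944 after AraC. Of the 34 monocyte and neutrophil differentiation genes, 13 also rose in KG-1-control cells and 0 fell. The list median there was 0.996, beside 1.31 in KG-1-FOXM1-KD cells. Its interaction was called in both directions, with a higher effect in KG-1-FOXM1-KD cells for 9 genes and a lower one for 4. ITGAM, among those with a higher effect, rose by 4.45 on the log2 scale in KG-1-FOXM1-KD cells. In KG-1-control cells, where it was read at 1722 to 3723 counts, its log2 fold change was 0.70.

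**Figure D4:**
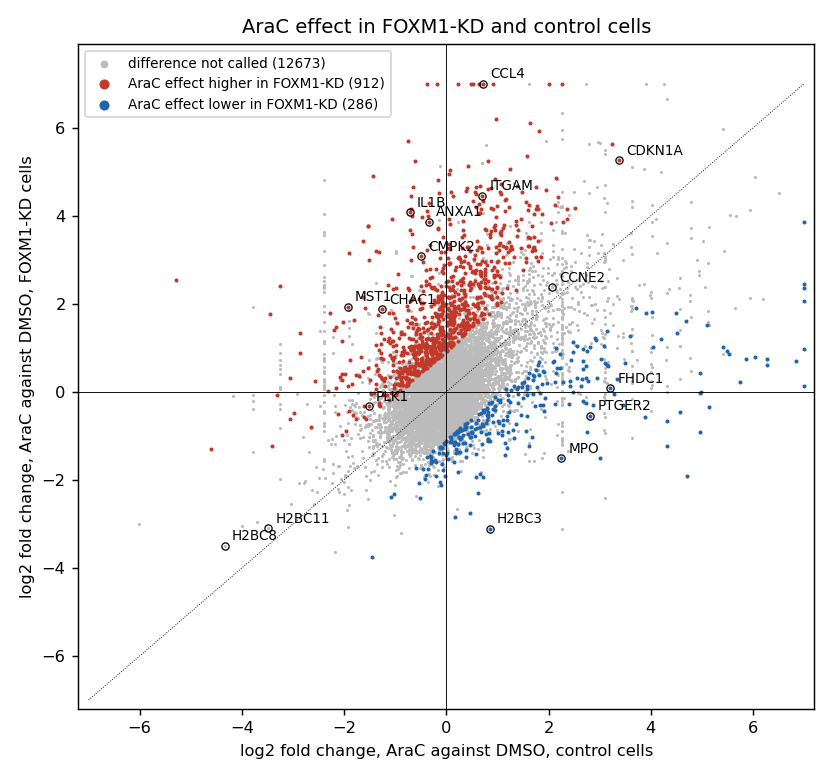
Log2 fold change of AraC over DMSO in KG-1-FOXM1-KD cells (vertical axis) against that in KG-1-control cells (horizontal axis) for the genes described and tested in both, with genes whose interaction was called in color and values beyond 7 drawn at 7. MPO lies in the lower right (-1.51 and 2.24), IL1B in the upper left (4.08 and -0.71), and the histone gene H2BC11 near the diagonal (-3.10 and -3.49).

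MPO changed in opposite directions, with a fall of 1.51 on the log2 scale in KG-1-FOXM1-KD cells and a rise of 2.24 in KG-1-control cells, an interaction of -3.66 (SE 0.25, adjusted p = 1.64e-45). The counts behind the rise were 242 and 197 after AraC and 35 and 48 after DMSO, far below those of KG-1-FOXM1-KD cells. H2BC3 had an interaction of -3.87 from 26 and 37 against 13 and 18 counts in KG-1-control cells. PTGER2, a prostaglandin E2 receptor, had an interaction of -3.26 and FHDC1, an actin regulator, one of -3.04, and both rose in KG-1-control cells and were not called in KG-1-FOXM1-KD cells. DDN, a cytoskeletal gene, fell by 1.02 in one and rose by 1.67 in the other. PLK1 fell by 1.52 on the log2 scale in KG-1-control cells, and its interaction of 1.28 was called (SE 0.28, adjusted p = 0.000406). In KG-1-control cells 5 of the G2 and mitosis genes fell, and the interaction was called for 6 of the list, all with a higher value in KG-1-FOXM1-KD cells. The mitochondrial genes had a median log2 fold change of 0.06 in KG-1-control cells, and the interaction was called for 5 of them. For these genes the KG-1-control DMSO libraries were far apart, with MT-ND2 at 5665 and 13028 counts.

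Venetoclax, given to the same KG-1-FOXM1-KD cells, served as a direct comparator, without the DMSO libraries. AraC and venetoclax libraries differed in 2495 of the 14202 genes, 1858 higher and 637 lower after AraC, beside 11.2% of all genes tested (8.32% and 2.89%). Scaling by total counts gave 2369 and 340, so that 87.4% of calls were higher after AraC instead of 74.5%. Without AraC library 1 the count was 1191 and without AraC library 2 it was 1317. A fit with the replicate number as a block gave 1924 higher and 632 lower.

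CDKN1A was 4.58 higher on the log2 scale after AraC than after venetoclax (41 and 26 counts), and CCNE2 was 2.14 higher (360 and 570 counts). Histone genes were lower after AraC in 34 cases of 45, with a median difference of -1.69. Interferon-stimulated genes were higher after AraC in 24 of 39 cases (median 1.43) and NF-kB targets in 21 of 29 (median 1.58). All 12 MHC class II genes were higher after AraC, with a median difference of 2.45. Beside DMSO, each drug's own median for that list was 0.87 for AraC and -1.62 for venetoclax, and as these share the DMSO libraries they are given side by side only. Genes of the primary granule list were lower after AraC in 11 of 15 cases, with a median difference of -2.26. Their median beside DMSO was 0.01 for AraC and 2.14 for venetoclax. ELANE had 23758 and 12905 counts after venetoclax, and 2272 and 1782 after AraC (log2 difference -3.47). RNASE3, an eosinophil granule ribonuclease, had 852 and 269 counts after venetoclax and 56 and 54 after AraC, the latter close to the 50 and 46 of DMSO.

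Of 32 immediate early genes, 8 were higher and 1 was lower after AraC than after venetoclax (median difference 0.45), beside 17.6% of all genes described called between the drugs. EGR1 had 589 and 582 counts after venetoclax, close to the 609 and 596 after AraC, with a log2 difference of -0.23 that was not called. ANXA1 was not called between the drugs either (-0.03), although its venetoclax libraries were far apart, at 2173 and 742 counts. The genes highest after AraC relative to venetoclax by the rule for named genes were ITGB7, CCL3, CDKN1A, PPP1R16B and ITGAX, with log2 differences of 4.92, 4.79, 4.58, 4.54 and 4.47. TREML2, left out of that rule by its 0 and 10 counts after venetoclax, had 367 and 337 after AraC. WNT7B, RNASE3, AFF2, ELANE and DEFB1 were the lowest, with differences of -3.70 to -3.41. BMF stood 3.20 higher after AraC, with 85 and 65 counts after venetoclax. BCL2 was read at 3774 and 3395 counts after venetoclax, a log2 difference of -0.16 that was not called.

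**Figure D5:**
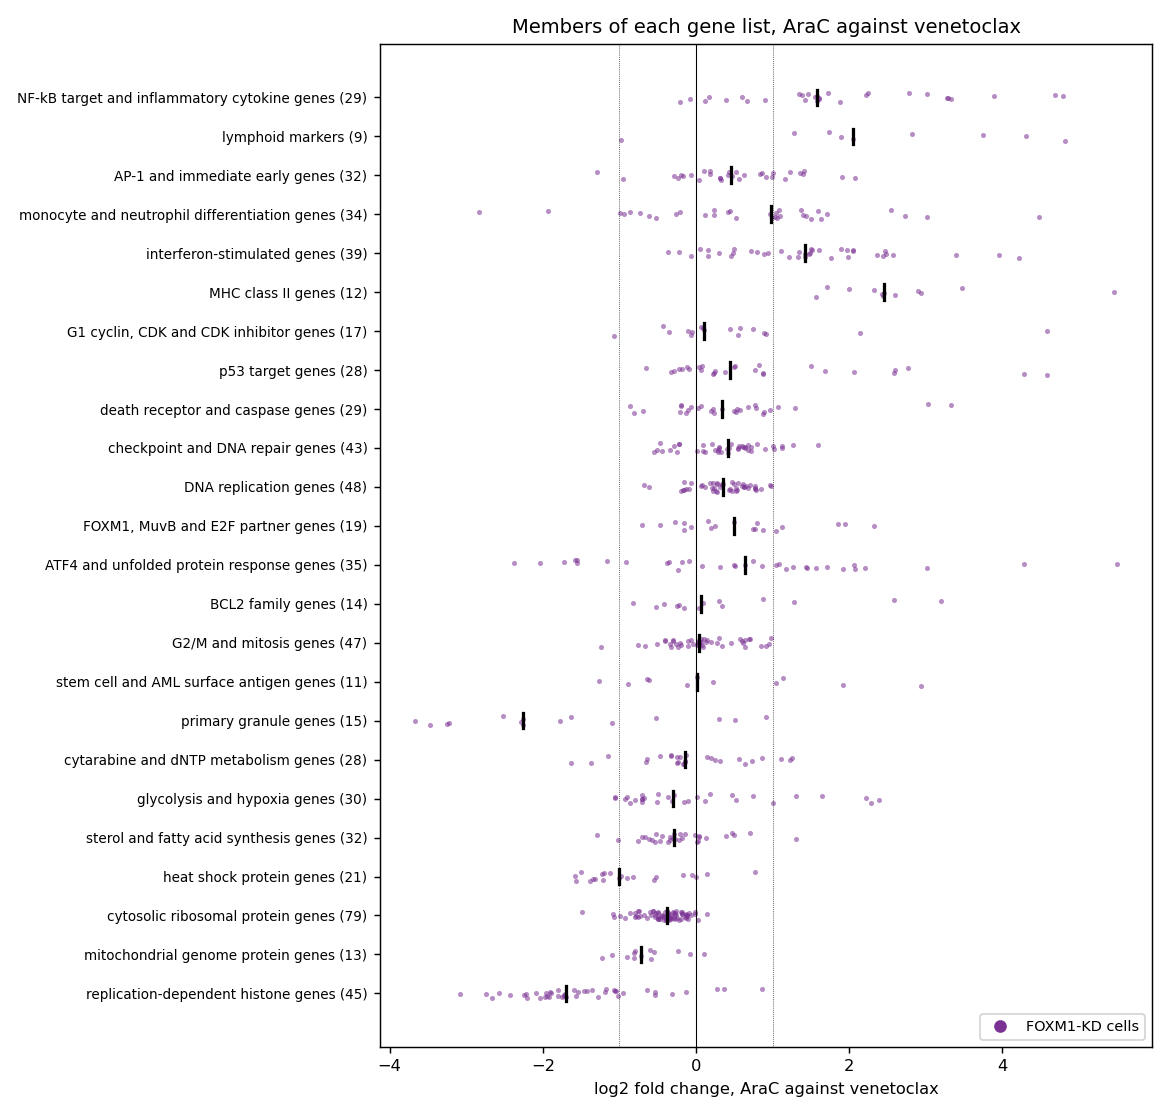
Log2 difference between AraC and venetoclax in KG-1-FOXM1-KD cells (horizontal axis, above 0 for higher after AraC) for each measured member of the gene lists with at least 9 members, with a black bar at each median. MHC class II genes lie furthest to the right (median 2.45) and the primary granule list furthest to the left (-2.26).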

How the data were processed

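RNA-seq libraries were rRNA-depleted, random-primed and made in one batch, with 2 biological samples per condition. Per the labels and the study's methods, the authors aligned reads with STAR to hg38 and counted them per gene with featureCounts against an Ensembl annotation, and the deposited values are raw counts. Versions, the strand setting and any use of molecular identifiers were not given in the sources used here, and the labels and the methods name different library kits, so overlapping and antisense genes cannot be told apart with certainty. Gene names and types came from GENCODE release 44, which held 43177 of 43836 genes listed.

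The 4 libraries compared held 15953805 and 18045126 counts (AraC) and 18386302 and 19733745 (DMSO), within 7351755 to 21362546 over the series. No 2 replicates agreed within sampling noise. Genes with at least 1 count entered edgeR 4.0.16 (R 4.3.3), with TMM scaling, glmQLFit and glmQLFTest and Benjamini-Hochberg adjustment over all genes tested. A gene was called at 2-fold and an adjusted p under 0.1, a count of at most 3 in both libraries of a group was taken as the floor, and the prior count was 0.125. The fit of AraC against DMSO in KG-1-FOXM1-KD cells gave all genes of like level a common spread. So did the fits of the interaction and of AraC against venetoclax. In these fits a wide gap between the replicates of 1 gene did not raise its SE. The AraC effect in KG-1-control cells (4 libraries), the interaction (8 libraries) and AraC against venetoclax (4 libraries) used the same test. With 2 samples each, p-values measure the spread between these samples, taken over many genes where it was shared.

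The members and the 26 gene lists were chosen with earlier results of these data known, and list counts support nothing beyond a description. Genes named were FOXM1, 5 of its usual targets, BCL2, BCL2L1 and MCL1, up to 4 called genes of each list by fold change (filled to 2 by level), the 10 protein-coding genes that rose and fell most with at least 10 counts in each library, and the 5 with the largest interaction or drug difference in each direction. Other list members were named after their values were seen. Alternatives were DESeq2 1.42.0, its size factors, the exact test, total-count scaling, a filter on low counts, a prior count of 2, an adjusted p under 0.05, an adjusted p across all 8 groups, a fit of all 16 libraries, omission of each library and a replicate block. The scripts were tested on simulated data.

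The labels number the AraC, venetoclax and MK-2206 libraries but not the DMSO libraries. Same-numbered libraries deviated together in each of the 10 pairs of numbered groups (correlations of 0.415 to 0.689 over 11818 genes), so the numbers were taken to pair them, and the replicate block could be fitted for AraC against venetoclax.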

Additional observations from a re-analysis of the deposited data

Results flagged for a closer look

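The effect of AraC differed between KG-1-FOXM1-KD and KG-1-control cells, by the interaction term of edgeR's quasi-likelihood test, for 58 of the 113 named genes, beside 8.44% of all genes described. The named genes were picked by their fold change or their interaction, so this count and the direction of the values follow largely from the choice. Values are the log2 fold change in KG-1-FOXM1-KD cells minus that in KG-1-control cells. The populations also differed in CD34, MPO and many other genes before treatment, so the part of FOXM1 in these differences cannot be told apart from that of the population.

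A higher value in KG-1-FOXM1-KD cells was found for 43 of the 58. Among p53 targets and cell cycle genes these were CDKN1A (1.98), BTG2 (2.43), TP53INP1 (2.13) and PLK1 (1.28). Among monocyte, neutrophil and immune surface genes they were ITGAM (3.84), ITGAX (3.32), NCF1 (2.33), CD101 (3.85), TREML2 (3.58), ITGB7 (2.83), PECAM1 (2.98), CD38 (2.17), ITGA2B (3.37) and CD79B (6.88). Inflammatory genes with a higher value were CCL4 (6.58), CCL2 (5.32), CCL3 (3.51), IER3 (4.10), IL1B (4.88) and ANXA1 (4.29), and interferon-stimulated genes were CMPK2 (3.67), IFI44 (2.99) and OAS3 (2.41). MHC class II genes followed with HLA-DQA1 (2.98), HLA-DOA (2.98) and HLA-DQB1 (2.63). With AraC or DMSO, the summed level of the class II list was 839 to 1290 CPM in KG-1-FOXM1-KD cells and 2488 to 3268 in KG-1-control cells. Stress and early response genes were ATF3 (3.29), DUSP1 (2.56), CHAC1 (3.21), CEBPB (1.70), ADM (3.90) and PFKFB4 (1.20), and genes of cell death were BCL2A1 (4.54), BMF (1.64), PMAIP1 (1.18), BIRC3 (1.84), TNFSF10 (1.26) and RIPK3 (1.37). The rest were TM7SF2 (2.71), EMP1 (4.75), SYNE2 (2.71), PPP1R16B (2.06) and MST1 (3.94). CCL4, CD79B and IER3 had at most 2 counts in each KG-1-FOXM1-KD DMSO library, and CCL2 and EMP1 at most 3 in each KG-1-control DMSO library, so the values of these genes depend on the prior count.

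A lower value in KG-1-FOXM1-KD cells was found for the granule gene MPO (-3.66) and for IGLL1 (-2.94). It was also found for the mitochondrial genes MT-ND4L (-1.32), MT-ND2 (-1.28) and MT-ND3 (-1.22). The others were H2BC3 (-3.87), E2F5 (-1.0), BCL2 (-1.07), HSPE1 (-1.24), TFRC (-1.20), RSAD1 (-1.22), PTGER2 (-3.26), FHDC1 (-3.04), AFF2 (-2.40) and DDN (-2.61). With 2 libraries a group, single outlying samples were not looked for.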

How the results depend on the processing

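With 2 libraries a group, leaving 1 out decided most of the counts. Over all single-library omissions, the genes called ranged from 0 to 2514 for AraC against DMSO in KG-1-FOXM1-KD cells (0 to 1945 higher, 0 to 652 lower) and from 0 to 1090 in KG-1-control cells (0 to 733 and 0 to 357). They ranged from 262 to 1616 for the interaction (216 to 1270 and 46 to 524) and from 1191 to 2817 for AraC against venetoclax (990 to 2044 and 201 to 933). The counts of 0 came from omitting an AraC library, with 1 residual degree of freedom in edgeR's quasi-likelihood test. Omitting DMSO library 1 or 2 of the KG-1-FOXM1-KD cells, also with 1, gave 2514 and 2240. Omission within the fit of all 16 libraries, chosen after seeing the data, left 1183 to 1645 genes in KG-1-FOXM1-KD cells and 247 to 367 in KG-1-control cells (181 to 315 higher, 52 to 75 lower). That fit of all 16 libraries moved the lower calls to 263 in KG-1-FOXM1-KD cells, the calls in KG-1-control cells to 716 (170 lower) and the interaction to 421 (333 higher, 88 lower). The filter on low counts moved the interaction to 797 (607 and 190), and DESeq2 its higher calls to 590. Scaling by total counts moved the lower calls to 279 against DMSO and 340 against venetoclax. The prior degrees of freedom in edgeR's test, the weight of the spread shared between genes, differed between the omissions. They were 2.58 without AraC library 1 and 2.57 without AraC library 2 of the KG-1-FOXM1-KD cells. Without either AraC library of the KG-1-control cells they were 1.42. They were infinite without either DMSO library, in both populations. Their part in the counts of 0 was not tested, nor was the cause of the other shifts.

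None of the 90 named genes called in KG-1-FOXM1-KD cells changed sign under an alternative run here, but some lost the call: 4 with DESeq2, 4 with scaling by total counts, 2 in the fit of all 16 libraries and 1 with p adjusted across all 8 groups. The call was lost for 5 without DMSO library 1, 8 without DMSO library 2, all 90 without either AraC library, and 8 to 21 on omission within the fit of all 16. Signs turned for 8 genes that were not called. CENPF was at 0.055 in the fit of all 16 libraries and 0.14 with scaling by total counts, TACC3 at 0.092 and BUB3 at 0.044 with the latter. Over single-library omissions the log2 fold change ran from -0.56 to 0.046 for TOP2A, -0.31 to 0.18 for TACC3, -0.32 to 0.086 for BUB3 and -0.69 to 0.13 for PLK1. It ran from -0.078 to 0.67 for CDK1, -0.24 to 0.72 for UBE2C, -0.45 to 0.38 for CENPF and -0.0099 to 0.34 for MCL1. Over all alternatives and omissions, FOXM1 ran from 0.43 to 1.20 and FASN from -1.18 to -0.29. Neither was called in the main test, but both passed 2-fold at an end of the range.

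No paired analysis was run for AraC against DMSO, because the DMSO libraries carry no replicate number in the labels. For AraC against venetoclax the replicate block gave 2556 genes (1924 higher, 632 lower) in place of 2495. With counts near 0 in the DMSO libraries, the fitted fold changes of 110 genes depend on the prior count.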
